A study of Mus musculus with 28 samples.

Results

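The 36 genes described here are the rod, cone and photoreceptor transcription factor genes of the mouse retina, taken as a fixed list of symbols out of the 23995 genes that each library lists. Of these, 11 belong to rods, 11 to cones and 14 to both, as assigned from general knowledge of the genes and not from these libraries. All 36 symbols were present. Axon-TRAP isolates mRNAs bound to an HA-tagged ribosomal protein L22, which Cre switches on, so that the tagged retina can be compared with the axons that its ganglion cells send to the superior colliculus (SC). The tissue came from the offspring of a homozygous RiboTag mother and a Pax6-alpha-Cre father, so every animal carried the switchable Rpl22 allele. Cre-positive animals gave the retina and the Cre-positive SC, and Cre-negative littermates, in which the tag stays off, gave the Cre-negative SC as the background of the immunoprecipitation. Each of these 3 tissues was sampled at 4 ages (embryonic E17.5, postnatal P0.5 and P7.5, and Adult) with 2 replicates per age, which makes 24 libraries measured in FPKM. A further 4 Adult libraries without replicates, from retina and Cre-positive SC with and without ribosome run-off, hold read counts. The driver limits what the retina libraries can show. Pax6-alpha-Cre acts for a short time in progenitors of the peripheral retina, so photoreceptors that descend from other progenitors carry no tag. For the retina samples, described as dissected retina, the methods give pooled eyes as what was homogenized, and the SC libraries had additional rounds of PCR.

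Photoreceptors turn light into an electrical signal through a cascade in which an opsin activates the G protein transducin, transducin releases the inhibition of a cGMP phosphodiesterase, and the fall of cGMP closes a cation channel. Rods and cones run the same cascade with largely separate sets of proteins, so most steps have a rod gene and a cone gene. Cones are born before most rods in the mouse, and the outer segments that hold the cascade grow after birth, under transcription factors such as CRX, NRL and NR2E3. Photoreceptors send no axon to the SC, so that mRNAs made only by photoreceptors can serve there as a measure of background. This does not extend to members that cells of the SC or ganglion cells may also use. In whole tissue, fewer cells of a type and less RNA per cell cannot be told apart.

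CRX binds DNA at sites with the core TAATCC, and the region just before the start of transcription was therefore searched for these letters on both strands (TAATCC or GGATTA). The RefSeq promoter table on GRCm38.p6, with windows of 300 bases from 250 bases before the start to 50 after it, holds 31 windows for 26 of the 36 genes. It has none for Gnat1, Pde6g, Guca1b, Gnb3, Gngt2, Pde6a, Pde6c, Cngb3, Rcvrn and Rp1. The letters were found for 12 of the 26 genes (46.2%), which were Sag, Guca1a, Crx, Cngb1, Abca4, Cnga1, Gnat2, Gngt1, Gucy2e, Gucy2f, Otx2 and Thrb. A match was present for 8.14% of all genes and in 7.06% of all windows. The letters TGCTGA or TCAGCA, as in sites bound by NRL, were found for 6 of the 26 genes (23.1%), against 21.7% of all genes. Neither motif contains the other. A match is a run of letters and does not show that a factor binds there. The 120 bases before the start are given for Sag and Guca1a, which are called in the retina below, and for Crx and Cngb1, which have 2 matches each, with the match in capitals and each sequence read 5′ to 3′ on the strand of the gene. The Sag stretch is chr1:87803560-87803679 on the plus strand, with the match starting 87 bases before the start. That of Guca1a is chr17:47400607-47400726 on the minus strand, with the match at 57 bases. Those of Crx (chr7:15879956-15880075) and Cngb1 (chr8:95306586-95306705) are also on the minus strand, with matches at 94 and 21 bases and at 58 and 25 bases.
Sag: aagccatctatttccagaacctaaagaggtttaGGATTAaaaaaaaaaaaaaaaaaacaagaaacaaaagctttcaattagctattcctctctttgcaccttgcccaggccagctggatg
Guca1a: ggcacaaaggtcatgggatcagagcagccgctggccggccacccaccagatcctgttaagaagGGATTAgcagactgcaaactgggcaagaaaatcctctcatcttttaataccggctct
Crx: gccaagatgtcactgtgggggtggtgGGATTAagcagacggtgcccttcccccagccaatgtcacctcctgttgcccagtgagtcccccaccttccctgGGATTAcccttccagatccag
Cngb1: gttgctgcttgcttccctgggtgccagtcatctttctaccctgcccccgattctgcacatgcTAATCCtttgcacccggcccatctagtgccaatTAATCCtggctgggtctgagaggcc

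Libraries differed within groups before any comparison. Between 6262 and 8769 genes were above 0 FPKM in 6 of the retina libraries, but 4311 in P7.5 replicate 1 and 2082 in Adult replicate 1. The files give no read totals. From the spacing of low FPKM values, 7 retina libraries held an estimated 6510000 to 10000000 fragments, P7.5 replicate 1 among them with 7150000, while no clear spacing was found in Adult replicate 1. P7.5 replicate 2 and Adult replicate 2 correlated with each other at r = 0.95 across genes, and P7.5 replicate 1 with the other 7 libraries at r = 0.64 to 0.82. Nearly all of the 36 genes (31) were lower in P7.5 replicate 1 than in replicate 2, as were 81.7% of all genes above 0 in either library. The Mueller glia markers summed to 494 FPKM in P7.5 replicate 1 and 16.7 FPKM in replicate 2. This sum mainly followed Glul, at 474 and 9.35 FPKM. Rlbp1 went the other way, with a listed 0 in replicate 1 and 5.99 FPKM in replicate 2. Of the 4 markers, 2 reached 1 FPKM in replicate 1 and 3 in replicate 2, so the sum does not describe the whole list. The lens markers summed to 3.66 FPKM in P7.5 replicate 1 and 980 FPKM in replicate 2. Results that use these stages are given with and without these libraries.

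A further library stood apart in the SC. Adult Cre-negative SC replicate 1 had 22 of the 36 genes at 1 FPKM or more, replicate 2 only 2 genes. Over all genes the counts were 2604 in replicate 1 and 723 in replicate 2. Its lens markers summed to 246 FPKM (5 of 6 above 0) against 1.34 FPKM in replicate 2. Its SC glia markers, myelin and astrocyte genes, summed to 4.10 FPKM with Mbp listed at 0, while Mbp was at 1019 FPKM in replicate 2. Lens and photoreceptor genes were thus high in it while Mbp was missing. The GABA-synthesis gene Gad1, which amacrine cells and SC neurons both use, was at 118 FPKM in it and at 4.01 FPKM or less in the other 23 libraries, retina included. Its estimated depth was 510000 fragments, so that 1 fragment on a transcript of 2 kb gave 0.98 FPKM. In what follows it is called the library labelled Adult Cre-negative SC replicate 1, and what led to its content was not tested.

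**Figure D1:**
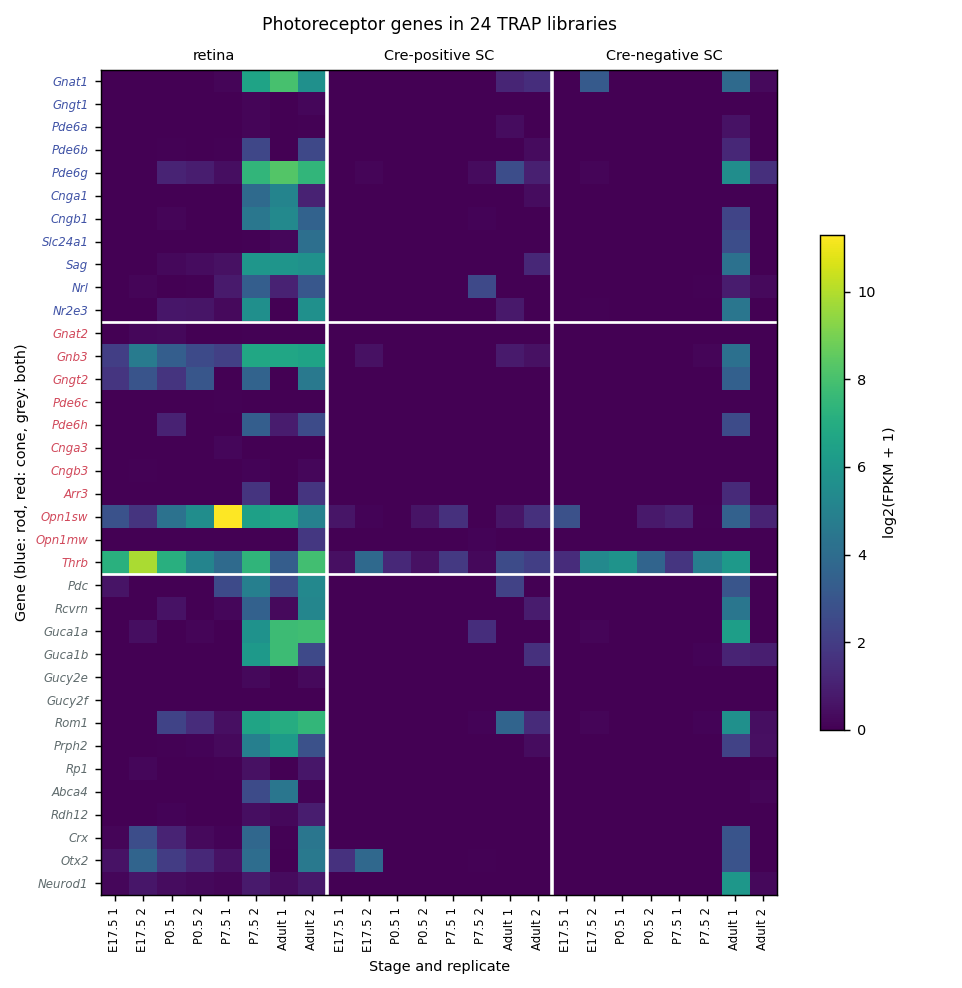
Levels of the 36 genes (rows, as log2 of FPKM + 1, color scale) in the 24 libraries (columns, by tissue, stage and replicate), with rod genes in blue, cone genes in red and genes of both in grey. Many genes are bright only in P7.5 replicate 2 and in either or both Adult libraries of retina, and some are bright in no retina library. Many also appear, mostly at lower levels, in Adult Cre-negative SC replicate 1, while Opn1sw, Thrb and Gnb3 are visible in every retina library.

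The retinal translatome held few of these genes around birth and more in most later libraries, with 4 of the 11 cone genes and no rod gene at E17.5. The number of genes at 1 FPKM or more was 4 and 6 in the E17.5 replicates, 9 and 6 in those of P0.5, 4 and 23 in those of P7.5, and 15 and 24 in Adult retina. Of all 23995 genes, 1815 and 4596 reached it at E17.5, 1835 and 1668 at P0.5, 1165 and 3449 at P7.5, and 1428 and 3692 in the Adult. Detection over all genes thus also differed between replicates of a stage. Counted by the first stage at which either library reached 1 FPKM, 6 of the 36 genes appeared at E17.5, 3 genes at P0.5, 14 genes at P7.5 and 2 genes in Adult retina, and 11 never did. Of the 6 genes of E17.5, 4 were cone genes, Opn1sw, Gnb3, Gngt2 and Thrb, and the other two were the transcription factors Crx and Otx2. None of the 11 rod genes reached 1 FPKM at E17.5, 1 did so first at P0.5 (Pde6g), 7 genes at P7.5 and 1 gene in Adult retina (Slc24a1). Of the 11 cone genes, 1 each appeared first at P0.5 (Pde6h), P7.5 (Arr3) and the Adult stage (Opn1mw), and 4 never did. When both libraries of a stage had to reach 1 FPKM, 4 genes appeared at E17.5, all of cones, 2 genes at P0.5, 1 gene at P7.5 and 9 genes in Adult retina, and 20 never did. The difference between rod and cone genes is a description and was not tested. Of the cone genes of E17.5, Opn1sw was not clear of the background, at 6.23 and 2.27 FPKM in retina and 6.07 and 0.0309 in Cre-negative SC. Thrb was at 145 and 945 FPKM in retina and 1.67 and 38.7 in Cre-negative SC, where Gnb3 and Gngt2 were listed at 0.

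The change over time was tested with limma on log2(FPKM + 1), comparing the 4 libraries of P7.5 and the Adult with the 4 of E17.5 and P0.5. Of the 36 genes, 23 reached 1 FPKM in at least 2 retina libraries and were tested, and 16 of these passed only with the help of P7.5 or Adult libraries, so that their direction was partly set by the filter. The transducin, phosphodiesterase, calcium sensor and arrestin genes Gnat1, Pde6g, Guca1a and Sag rose, and no gene fell. These are 4 of 23 genes, against 0.22% of the 4083 genes tested that rose and 0.735% that fell. All 4 called genes were among the 16 that passed the filter only with the help of the later libraries. The median difference was 2.52 for the 23 genes and 0.06 for all genes tested, and the first of these was raised by the same filter and does not describe all 36 genes. At an unadjusted p under 0.05, 15 of the 23 genes passed, as did 9.31% of all genes. The calls were not stable to the libraries or the scaling. Leaving out any of the 4 libraries of E17.5 or P0.5 left 0 genes called, as did median-ratio scaling (adjusted p from limma 0.084 to 0.11 for the 4 genes) and testing without the filter. Without P7.5 replicate 1 the count was 10 (1.15% of all genes rose), without P7.5 replicate 2 it was 1 (0.114%), without Adult replicate 1 it was 3 (0.205%) and without Adult replicate 2 it was 9 (0.854%). Without P7.5 replicate 1 and Adult replicate 1 together, an alternative chosen after the data were seen, 15 genes rose, and 6.04% of all genes did. In 5 of the 23 genes, Gnat1, Sag, Pdc, Prph2 and Nrl, all 4 later libraries were above all 4 earlier ones, as in 1.76% of all genes tested, and in 13 genes when P7.5 replicate 1 was left aside (9.77%).

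**Figure D2:**
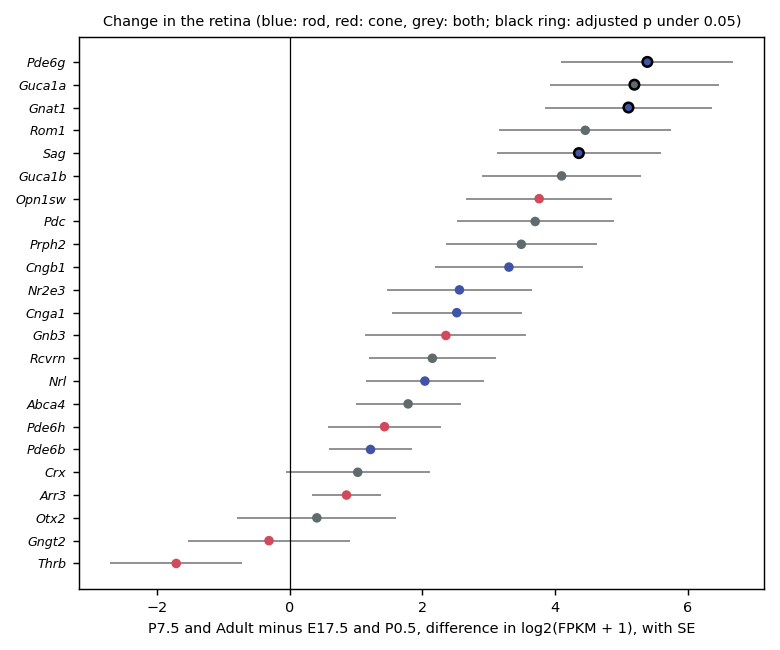
Difference in log2(FPKM + 1) between the 4 P7.5 and Adult and the 4 E17.5 and P0.5 retina libraries for the 23 genes tested (points, with standard errors as bars), rod genes in blue, cone genes in red and both in grey. The 4 genes with a black ring, Pde6g, Guca1a, Gnat1 and Sag, had an adjusted p under 0.05, and Gngt2 and Thrb lie below 0.

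Among the transducin genes, only the rod alpha subunit passed the test. Gnat1 (ENSMUSG00000034837, GRCm38 chr9:107674474-107679712, minus strand) was listed at 0 in all 4 libraries of E17.5 and P0.5, at 0.126 and 93.6 FPKM at P7.5, and at 257 and 50.2 FPKM in the Adult. The later libraries thus lay above the earlier ones, with P7.5 replicate 1 close to 0. The difference was 5.11 (SE 1.26, adjusted p from limma 0.0097), a value that depends on the pseudocount because the earlier group is listed at 0. Its cone counterpart Gnat2 stayed at or under 0.175 FPKM in every retina library and was not tested. Gnb3, the beta subunit of cone transducin that ON bipolar cells also use, was at 3.30 and 24.8 FPKM at E17.5, 9.31 and 4.84 at P0.5, 3.36 and 104 at P7.5, and 104 and 94.2 in Adult retina. It was present at every stage, and its groups overlapped through P7.5 replicate 1 (difference 2.36, SE 1.21, adjusted p from limma 0.53). In FPKM, the gamma subunits were the reverse of the alpha subunits, with the rod gene Gngt1 at or under 0.164 FPKM in every retina library. This order did not hold in the read counts of Adult retina without run-off, where Gngt1 had 39 reads and Gngt2 7. The cone gene Gngt2 was at 2.39 and 6.58 FPKM at E17.5, 2.22 and 7.17 at P0.5, a listed 0 and 11.0 at P7.5, and a listed 0 and 22.8 in Adult retina. Exons of Gngt2 share 234 bases with Abi3 on the opposite strand, which is listed at 0 in all 24 libraries. Phosducin (Pdc), which binds the beta and gamma subunits, was at 0.491 FPKM or a listed 0 before P7.5, at 4.80 and 28.9 FPKM at P7.5, and at 5.30 and 38.1 FPKM in the Adult. All 4 later values exceeded the earlier ones, and the difference of 3.70 (SE 1.18) missed the threshold (adjusted p from limma 0.13).

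The phosphodiesterase was represented mainly by its rod inhibitory subunit. Pde6g (ENSMUSG00000025386, chr11:120447605-120453500, minus strand) was listed at 0 at E17.5, and was at 1.16 and 0.865 FPKM at P0.5, 0.350 and 171 at P7.5, and 308 and 173 in Adult retina. It had the largest difference of the 23 genes, 5.39 (SE 1.29, adjusted p from limma 0.0080), although P7.5 replicate 1 lay under both P0.5 libraries. The cone inhibitory subunit Pde6h was lower, at 1.10 FPKM in P0.5 replicate 1, 9.28 in P7.5 replicate 2, and 0.807 and 4.98 in the Adult, and was listed at 0 in the other 4 retina libraries. On the log2(FPKM + 1) scale Pde6g exceeded Pde6h by 4.06 in P7.5 replicate 2 and by 7.42 and 4.87 in the Adult. The catalytic subunits were low throughout. Pde6b of rods was at 4.37 FPKM in P7.5 replicate 2 and 4.52 in Adult replicate 2, with at most 0.053 FPKM in the other 6 libraries. Pde6a of rods stayed at or under 0.119 FPKM, and Pde6c of cones at or under 0.0471 FPKM.

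The cGMP-gated channel and the exchanger were detected above 1 FPKM only from P7.5 on, and only as rod genes, and none was called. The channel subunit Cnga1 was listed at 0 in all libraries up to P7.5 replicate 1, and was at 13.9 FPKM in P7.5 replicate 2 and 33.1 and 1.13 in the Adult (difference 2.52, SE 0.98, adjusted p from limma 0.34). Cngb1, its partner, was at most at 0.105 FPKM before P7.5, at a listed 0 and 21.5 FPKM at P7.5, and at 39.3 and 10.7 FPKM in the Adult (difference 3.31, SE 1.12, adjusted p from limma 0.18). Both had their highest values in the same 3 libraries, but in Adult replicate 2 Cnga1 was only just above 1 FPKM. The cone subunits Cnga3 and Cngb3 stayed at or under 0.151 and 0.138 FPKM. Slc24a1, the sodium, calcium and potassium exchanger of rods, was at 16.3 FPKM in Adult replicate 2 and at or under 0.15 FPKM elsewhere in retina.

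Of the genes that end the light response, Sag and Guca1a rose. Sag (ENSMUSG00000056055, chr1:87803680-87845158, plus strand), the arrestin of rods, was listed at 0 at E17.5, and was at 0.182 and 0.294 FPKM at P0.5, 0.413 and 60.3 at P7.5, and 59.0 and 51.2 in Adult retina. Its later libraries were all above the earlier ones, and the difference was 4.36 (SE 1.23, adjusted p from limma 0.044). The cone arrestin Arr3 reached 2.2 FPKM in P7.5 replicate 2 and 2.37 in Adult replicate 2 and was listed at 0 in the other 6 libraries. Guca1a (ENSMUSG00000023982, chr17:47394558-47400584, minus strand), the calcium sensor that restarts cGMP synthesis, was at a listed 0 and 0.319 FPKM at E17.5, a listed 0 and 0.128 at P0.5, a listed 0 and 54.0 at P7.5, and 215 and 224 in Adult retina. The Adult replicates were close to each other, and P7.5 replicate 1 had no signal (difference 5.20, SE 1.28, adjusted p from limma 0.0097). Its relative Guca1b was listed at 0 in all libraries up to P7.5 replicate 1, and was at 69.3 FPKM in P7.5 replicate 2 and at 215 and 4.67 in the Adult. The Adult values of Guca1b differed by much more than those of Guca1a, and its difference of 4.10 (SE 1.19) had an adjusted p from limma of 0.056. Recoverin (Rcvrn), the calcium sensor that holds back the opsin kinase, was at 10.3 FPKM in P7.5 replicate 2 and 35.6 in Adult replicate 2 and at or under 0.474 elsewhere. The guanylate cyclases that these sensors control were near 0, with Gucy2e at or under 0.229 FPKM and Gucy2f listed at 0 in every retina library.

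The cone opsin Opn1sw was present from the first stage on. Opn1sw (ENSMUSG00000058831, chr6:29376671-29388468, minus strand), the short-wavelength opsin, was at 6.23 and 2.27 FPKM at E17.5, 18.1 and 45.3 at P0.5, 2526 and 84.1 at P7.5, and 103 and 30.5 in Adult retina. The highest value fell in P7.5 replicate 1, the library in which nearly all other photoreceptor genes were low, and the Adult range overlapped that of P0.5. The difference of 3.76 (SE 1.10) had an adjusted p from limma of 0.056. Exons of Opn1sw share 397 of 2557 bases with Calu on the opposite strand, and reads from such bases cannot be assigned without strand. Calu was at or under 1.65 FPKM in every retina library and at 0.0444 FPKM in P7.5 replicate 1. The medium-wavelength opsin Opn1mw was listed at 0 in 7 retina libraries and was at 2.57 FPKM in Adult replicate 2.

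None of the outer segment genes passed the threshold. Rom1 and Prph2 encode the tetraspanins of the disc rim. Rom1 was listed at 0 at E17.5, and was at 3.84 and 1.75 FPKM at P0.5, 0.377 and 94.8 at P7.5, and 129 and 179 in Adult retina (difference 4.46, SE 1.29, adjusted p from limma 0.056). Prph2 was at most at 0.0743 FPKM before P7.5, at 0.208 and 28.4 FPKM at P7.5, and at 71.2 and 6.09 FPKM in the Adult (difference 3.49, SE 1.14, adjusted p from limma 0.15). Both differences were near in size to those of the called genes and missed the threshold. The retinoid transporter Abca4 was at 5.04 FPKM in P7.5 replicate 2, 20.9 in Adult replicate 1 and 0.0704 in Adult replicate 2, and was listed at 0 elsewhere. Rp1, a protein of the outer segment axoneme, and the retinol dehydrogenase Rdh12 stayed under 1 FPKM, with highest values of 0.628 and 0.846 FPKM.

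None of the 5 transcription factors tested passed the threshold. Thrb, the thyroid hormone receptor that cones need for their medium-wavelength opsin, was at 145 and 945 FPKM at E17.5, 139 and 33.7 at P0.5, 14.0 and 166 at P7.5, and 9.03 and 236 in Adult retina. It was the most abundant of the 36 genes at E17.5, and its difference was -1.71 (SE 0.99, adjusted p from limma 0.63). Otx2, which sets photoreceptor fate, was at 0.474 and 11.4 FPKM at E17.5, 3.08 and 1.43 at P0.5, 0.453 and 15.5 at P7.5, and a listed 0 and 22.7 in Adult retina. Crx, which acts downstream of OTX2, was at 0.115 and 5.29 FPKM at E17.5, 1.19 and 0.237 at P0.5, 0.0945 and 12.6 at P7.5, and 0.0350 and 20.3 in Adult retina. For both, the spread between replicates was larger than that between stages (differences 0.41, SE 1.20, and 1.03, SE 1.09). Nrl, which directs the rod fate, was at or under 0.1 FPKM before P7.5, at 0.754 and 9.35 FPKM at P7.5, and at 1.12 and 7.49 FPKM in the Adult. Nr2e3, which represses cone genes in rods, was listed at 0 at E17.5, and was at 0.615 and 0.549 FPKM at P0.5, 0.210 and 48.5 at P7.5, and a listed 0 and 49.5 in Adult retina. Both rod factors were thus high in replicate 2 of the later stages, and the differences of 2.04 (SE 0.89) and 2.56 (SE 1.10) had adjusted p-values from limma of 0.48 and 0.47. Neurod1, a bHLH factor of photoreceptors and amacrine cells, stayed between 0.110 and 0.747 FPKM in all 8 retina libraries. Its exons share bases with Cerkl and Gm26755, those of Otx2 with Otx2os1 and Gm49154, those of Nr2e3 with Gm15507 and those of Pde6h with Arhgdib.

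**Figure D3:**
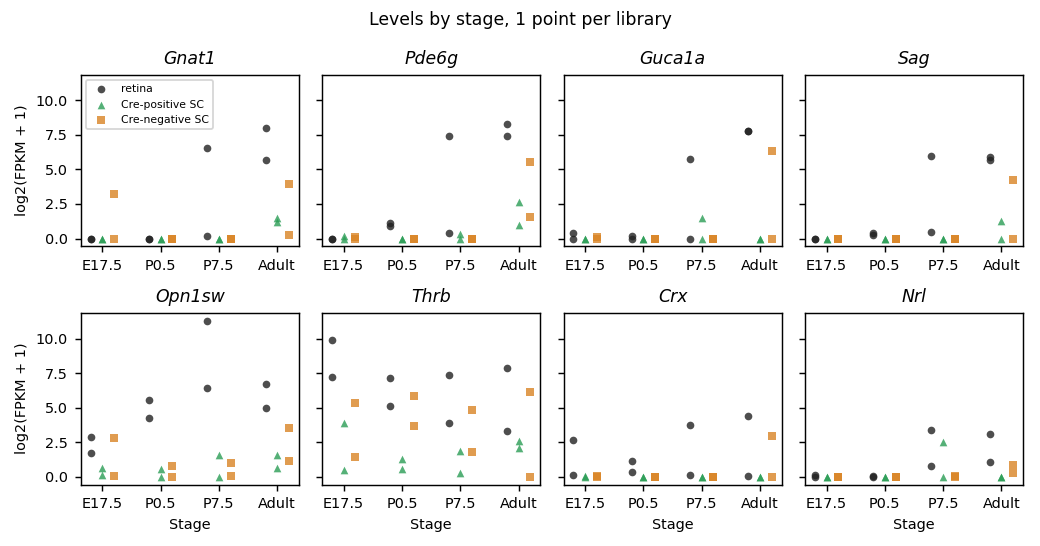
Levels of 8 genes as log2(FPKM + 1) by stage, with 1 point per library for retina (black circles), Cre-positive SC (green triangles) and Cre-negative SC (orange squares). Gnat1, Pde6g, Guca1a and Sag are at or near 0 in retina before P7.5 and high in 1 of the P7.5 libraries and both Adult libraries, whereas Opn1sw and Thrb are above 0 in every retina library.

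Between consecutive stages no gene of the 23 passed the threshold in limma. Of all genes, 0.0245% were called in each direction from P0.5 to P7.5, and 0% in the other steps. The count of the 23 at an unadjusted p under 0.05 was 0 genes from E17.5 to P0.5 (0.833% of all genes), 2 genes from P0.5 to P7.5 (2.42%) and 3 genes from P7.5 to the Adult (1.4%). When P7.5 replicate 2 was left out, which leaves P7.5 replicate 1 alone to stand for its stage, 4 genes rose from P7.5 to the Adult (0.256% of all genes) and 1 gene from P0.5 to P7.5 (0.284%).

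The mRNAs of the 36 genes were scarce in the SC, with Thrb and Opn1sw as the genes seen most widely. Which cells the SC signal of Thrb, Otx2 and Neurod1 came from was not tested. In the 15 SC libraries other than the one labelled Adult Cre-negative SC replicate 1, between 1 and 12 of the 36 genes were above 0 FPKM. Of all genes, between 1162 and 5268 were above 0 FPKM in these libraries. Over all SC libraries, 9 of the 36 genes were listed at 0 throughout and 23 reached 1 FPKM in at least 1 library, but 11 did so once the library labelled Adult Cre-negative SC replicate 1 was left aside. That library held the highest SC value of 21 of the 27 genes that were above 0 anywhere in the SC. The 3 genes with the highest single SC values, Guca1a with 78.8, Thrb with 68.0 and Neurod1 with 62.7 FPKM, all had them there. Outside it, Thrb reached 55.8 FPKM in P0.5 Cre-negative replicate 1, 38.7 in E17.5 Cre-negative replicate 2 and 27.7 in P7.5 Cre-negative replicate 2, and 13.7 FPKM at most in Cre-positive SC. Otx2 was at 2.04 and 13.1 FPKM in the E17.5 Cre-positive replicates and listed at 0 in both Cre-negative replicates. Nrl was at 4.6 FPKM in P7.5 Cre-positive replicate 2 and listed at 0 in replicate 1. Gnat1 was at 8.33 FPKM in E17.5 Cre-negative replicate 2, a stage at which it was listed at 0 in retina.

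Of the 36 genes, 10 could be tested between Cre-positive and Cre-negative SC, and none differed at any stage in limma. The number at an unadjusted p under 0.05 was 1 at E17.5 (6.07% of all genes) and 0 at P0.5 (39.2%), P7.5 (1.4%) and the Adult stage (3.08%). Of all 5983 genes tested at E17.5, the Cre-positive libraries had 0.468% higher and 1.1% lower, followed by 28.1% and 4.35% for P0.5, 0% and 0% for P7.5, and 0.0836% and 0.0669% for Adult SC. In the Adult none of the 10 differences was above 0, with a median of -1.0 against 0 for all genes. With the library labelled Adult Cre-negative SC replicate 1 as the only Adult Cre-negative sample 3 genes were called lower in Cre-positive SC (1.78% of all genes), and without it none. Without it 6 of the genes passed the filter, and their median difference was 0.67. The Adult Cre-positive libraries themselves had 5 and 7 of the 36 genes at 1 FPKM or more, and 2023 and 908 of all genes. They had Rom1 at 11.4 and 1.62 FPKM, Pde6g at 5.39 and 1.01, Gnat1 at 1.25 and 1.79 and Thrb at 4.98 and 3.24. Their estimated depths of 734000 and 1270000 fragments mean that 1 fragment on a transcript of 2 kb gave 0.681 and 0.394 FPKM, so most of these values stand for a few fragments.

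Retina and SC were compared over 24 of the 36 genes. At P0.5, Opn1sw was higher in retina than in Cre-positive SC (18.1 and 45.3 against a listed 0 and 0.493 FPKM, difference 4.61, SE 1.47, adjusted p from limma 0.027). It was the only one of the 24 genes called there, against 1.49% of all 7193 genes tested that were higher in retina and 26.4% that were lower, and it was not called when any 1 of the 4 libraries was left out. No gene was called at E17.5 (0.862% of all genes higher in retina and 0.459% lower), P7.5 (0% and 0%) or the Adult stage (0% and 0.0973%). At an unadjusted p under 0.05, 2 of the 24 genes passed at E17.5 (10% of all genes), 2 genes at P0.5 (35.7%), 7 genes at P7.5 (2.95%) and 15 genes in Adult tissue (7.79%). The median differences at both later stages were 2.23 and 2.89 against 0.19 and 0.27 for all genes, but 10 of the 24 genes passed the filter only with the help of P7.5 or Adult retina, so that these medians were partly set by it. The setting that leaves out P7.5 and Adult replicate 1 of the retina together, here and below, was chosen after the data were seen. It leaves 1 retina library at each of these stages. Without P7.5 replicate 1 and Adult replicate 1 of the retina, 15 and 16 genes were higher in retina, against 3.74% and 4.42% of all genes. Leaving out 1 library at a time gave 1 gene at P7.5 without Cre-positive SC replicate 1 (0.0419% of all genes) or retina replicate 2 (0.171%). In the Adult it gave 1 gene without retina replicate 1 (1.05%) and 5 genes without retina replicate 2 (1.66%).

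Against Cre-negative SC no gene of the 24 was called at any stage in limma, and at an unadjusted p under 0.05 the counts were 2, 1, 8 and 13 from E17.5 to the Adult, against 12.8%, 13.8%, 4.37% and 7.84% of all genes. With the replicate number within the stage as a block, Opn1sw was called at P0.5 (adjusted p from limma 0.042 in place of 0.096). Of all genes, 1.1% were higher and 0.973% lower in retina at E17.5, followed by 0.667% and 5.24% for P0.5, 0% and 0.0139% for P7.5, and 0% and 0.0973% for the Adult stage. Leaving out the library labelled Adult Cre-negative SC replicate 1 gave 4 genes in the Adult (1.2% of all genes), and leaving out Adult retina replicate 2 gave 3 (1.5%). At P7.5, 1 gene was called without Cre-negative SC replicate 1 (0.0281%) or without retina replicate 2 (0.228%). Without both P7.5 replicate 1 and Adult replicate 1 of the retina, 16 genes were higher in retina at P7.5 (3.66% of all genes) and 2 genes in Adult tissue (2.49%). The setting without both of these retina libraries, also used below, was chosen after the data were seen. The change from the early to the late stages was also compared between tissues. No gene of the 24 changed differently in retina than in Cre-positive SC (9.7% of all genes higher and 0.779% lower) or than in Cre-negative SC (1.49% and 0.306%), with 10 and 11 genes at an unadjusted p under 0.05, as had 24.2% and 10.7% of all genes. Without P7.5 retina replicate 1 the calls became 10 and 6 (11.1% and 1.79% of all genes), and without Adult retina replicate 2 they became 5 and 2 (9.31% and 2.02%). Against Cre-positive SC there were also 2 calls without Adult retina replicate 1 (10.5%) and 1 without Adult Cre-positive SC replicate 1 (7.64%), and against Cre-negative SC 1 without the library labelled Adult Cre-negative SC replicate 1 (1.56%). With P7.5 and Adult replicate 1 of the retina both left out, the calls were 19 and 12, against 16.3% and 4.52% of all genes.

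The library labelled Adult Cre-negative SC replicate 1 held most of these genes at a similar share of their Adult retina level. For the 24 genes at 1 FPKM or more in Adult retina replicate 2, its level was a median of 31.3% of that library, with quartiles of 26.2% and 39.0%. Guca1a was at 78.8 against 224 FPKM, Rom1 at 50.8 against 179, Pde6g at 45.5 against 173, and Sag at 17.525 against 51.2. Gnat1 was at 14.1 against 50.2 FPKM, Nr2e3 at 20.7 against 49.5, Rcvrn at 20.5 against 35.6 and Thrb at 68.0 against 236. Others departed from this. Neurod1 was at 62.7 FPKM against 0.651 in Adult retina replicate 2 and 0.246 in replicate 1. Pde6h was at 98.8% and Nrl at 10.9% of Adult retina replicate 2, and Cnga1 and Opn1mw were listed at 0 (1.13 and 2.57 FPKM in that library), as was Abca4, high in Adult retina replicate 1. Over the 36 genes, log2(FPKM + 1) correlated at r = 0.87 with Adult retina replicate 2, 0.48 with Adult retina replicate 1 and 0.28 with Adult Cre-negative SC replicate 2. Over the other 23955 genes without a missing entry the same values were 0.79, 0.66 and 0.51. The genes share these libraries and are not independent, so no test was made.

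**Figure D4:**
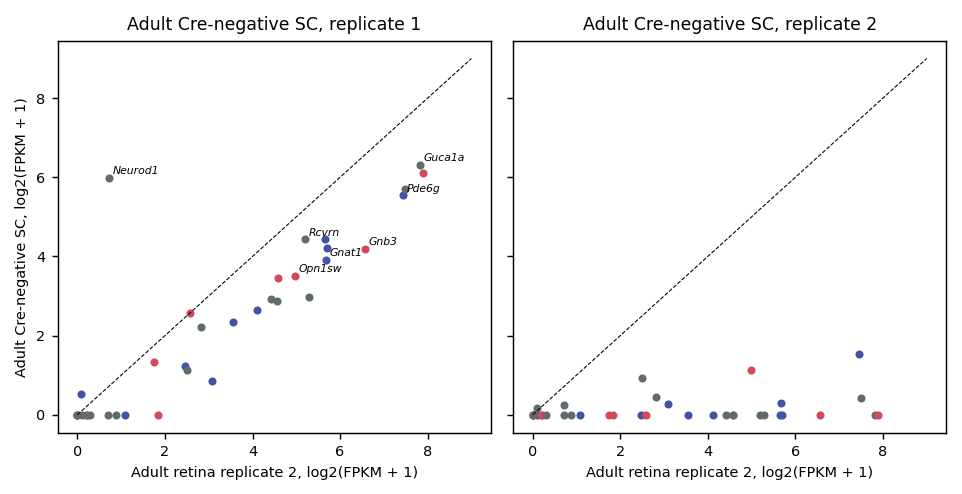
Level of the 36 genes in Adult Cre-negative SC replicate 1 (left) and replicate 2 (right) against Adult retina replicate 2, as log2(FPKM + 1), with rod genes in blue, cone genes in red, both in grey and equal levels as a dashed line. In replicate 1 the median is 31.3% of the retina, Neurod1 lies far above the dashed line, Pde6h lies on it and Cnga1 and Opn1mw are at 0, and in replicate 2 most genes lie near 0.

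Ribosome run-off asks which mRNAs were held by translating ribosomes. Initiation was blocked with harringtonine and 4E1RCat in a reticulocyte lysate, so that ribosomes already on an mRNA could complete it and be released ahead of the TRAP step. The Adult retina libraries held 4686284 reads on genes without and 315009 with run-off (6.72% as many), with no replicates, so no test was made and the intervals cover counting error only. Reads of 35 of the 36 genes were found, and 33 had fewer reads with run-off, while 92.1% of all genes did that had any read. The share is thus near that of all genes, as it was among the 33 genes with at least 10 reads without run-off (31 fewer, 97.3% of all such genes). The 36 genes together had 51805 reads without and 4485 with run-off, so 8.66% remained. Their share of the library was 1.11% (Wilson 95% interval 1.10 to 1.11) without and 1.42% (1.38 to 1.47) with run-off. In CPM, reads scaled to the total of the library, 16 of the 35 genes were lower with run-off, whereas 71.9% of all genes were. Among the 33 genes with at least 10 reads, 14 were lower in CPM (71.1% of all such genes) and 7 were under 0.5 times their value without run-off (63.4%). The median share of reads left was 9.38% over these 33 genes and 0% over all 6674 such genes, which were not matched to them for reads. Gnb1, the transducin beta subunit of rods that many other cells also use, took 30.5% of all reads without and 18.04% with run-off, and with its reads left aside 16 of the 35 genes were lower in CPM (73.7% of all genes), an alternative chosen after the data were seen.

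Among the 6 genes with the most reads without run-off, between 4.34% and 11.9% of the reads were left. Gnat1 had 17334 reads without and 962 with run-off, and 5.55% remained (exact 95% interval 5.20 to 5.92). Pdc kept 455 of 7852 reads (5.79%, 5.26 to 6.37) and Guca1b 135 of 3110 (4.34%, 3.63 to 5.16). Pde6g kept 533 of 5680 reads (9.38%, 8.57 to 10.3) and Sag 265 of 2707 (9.79%, 8.60 to 11.1). The cone opsin Opn1sw kept 341 of 2862 reads (11.9%, 10.6 to 13.3). These 6 genes lay on both sides of the 6.72% of the whole library. Summed over the lists, 7.5% of the reads of rod genes remained, 11.0% of those of cone genes and 9.86% of those of genes of both. Gnat1 held 17334 of the 28760 rod reads without run-off, and Opn1sw 2862 of the 4947 cone reads. The sums of rods and cones thus mainly follow these genes and do not describe the other members.

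Some genes lay well outside this range. Crx kept 3 of 749 reads (0.401%, exact 95% interval 0.0824 to 1.18) and Cnga1 4 of 413 (0.969%, 0.263 to 2.50). By contrast, Guca1a kept 506 of 1023 reads (49.5%, 44.4 to 55.1), Rdh12 59 of 157 (37.6%, 27.4 to 51.0), Neurod1 94 of 258 (36.4%, 28.5 to 46.3) and Pde6b 131 of 419 (31.3%, 25.5 to 38.1). The paired calcium sensors Guca1a and Guca1b thus differed in these libraries beyond counting error, without a replicate to show that the difference recurs. Arr3 had more reads with run-off, 44 against 18, and so did Gucy2e, 29 against 20, with an interval for Gucy2e that includes equal reads (79.3 to 270% of the reads without run-off). Gnat2, Gngt1, Gngt2, Cnga3, Gucy2f and Opn1mw had between 3 and 47 reads without run-off and 0 with it.

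**Figure D5:**
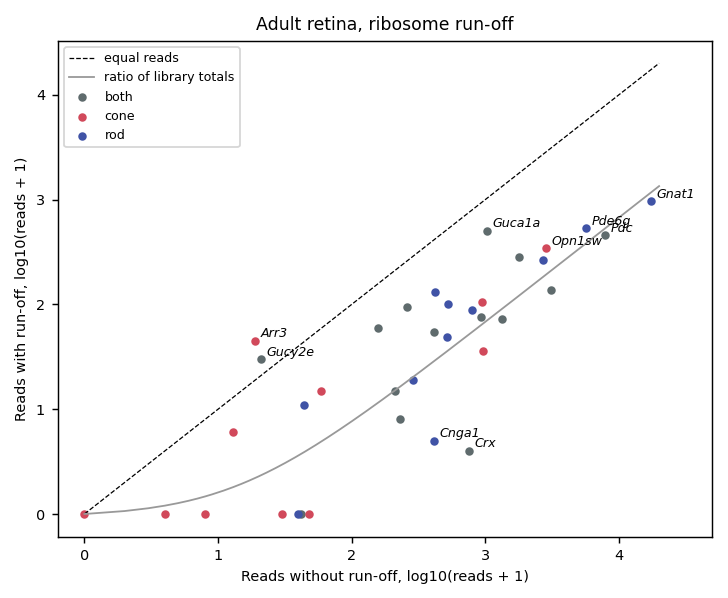
Reads of the 36 genes in Adult retina with run-off against reads without it, both as log10(reads + 1), with rod genes in blue, cone genes in red and both in grey. The grey curve is the 6.72% given by the library totals, and the genes scatter on both sides of it, with Crx and Cnga1 below it, Guca1a, Rdh12, Neurod1 and Pde6b above it and Arr3 and Gucy2e above the dashed line of equal reads.

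In Cre-positive SC the run-off libraries held 3262914 reads without and 349395 with run-off (10.7% as many). Only 7 of the 36 genes had a read, and 6 had fewer reads with run-off, against 84.9% of all genes. Of the 2 genes with at least 10 reads without run-off both had fewer with it, as did 96.6% of all such genes. In CPM the number was also 6 (72.3% of all genes). Thrb had 512 reads without and 1 with run-off (0.195%, exact 95% interval 0.00494 to 1.09), and Gucy2e 199 and 0. Gucy2e, near 0 in every FPKM library, thus had more reads in the SC library without run-off than in that of the retina. Gnat1 had 3 reads, and Gnb3, Pdc, Rom1 and Pde6g had 1 read each, the last of them with run-off.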

How the data were processed

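Ribosome-bound mRNA of the 24 libraries and the 4 run-off libraries was amplified by PCR and sequenced, and per the labels and the methods the authors mapped reads to mm10 with TopHat2 2.0.12. The authors deposited FPKM from Cufflinks 2.2.1, per gene and library, and for run-off unscaled read counts from HTSeq 0.6.1p1. FPKM is scaled within a library, so a few abundant genes move all others, and a listed 0 can be a failed estimate. Here log2(FPKM + 1) was fitted with limma 3.58.1 (trend, robust, statmod 1.5.0, R 4.3.3) for genes with 1 FPKM or more in 2 or more of the libraries fitted, with Benjamini-Hochberg adjustment over all genes tested and a two-sided threshold of 0.05. The retina (8 libraries), the SC (16) and all 24 were fitted separately. The code was tested on simulated data. In all, 4 genes with a missing entry were left out of the fits they affect. The study calls the SC samples biological replicates without saying which litters they came from, so p-values measure the spread between these samples, which may in part be technical. Fragments per library were estimated from the spacing of FPKM times length over 2966 single-transcript genes (GENCODE vM21). Run-off shares carry exact or Wilson 95% intervals, which cover counting error only, since PCR reads are not independent molecules. Promoters are from RefSeq. Alternatives were another pseudocount, no filter, median-ratio scaling, a replicate block and each library left out. All members are accounted for, with values in every library for transcription factors, rod and cone counterparts, called genes and the 3 highest in SC, and the members and lists were chosen with earlier results of these data known. Other tools were scipy 1.17.1, pandas 2.3.3, numpy 2.4.6 and matplotlib 3.10.9 under Python 3.11.15.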

Additional observations from a re-analysis of the deposited data

How the results depend on the processing

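Of the 72 planned settings other than leaving out a library, 68 kept the count of members called within 1.5 times, and none reversed a call. Most of these belong to comparisons with 0 members called in the main fit. There a count that stayed at 0 was scored as kept, and no call could be reversed, so the 68 do not measure how stable the calls are. For late against early retina, the count of 4 became 0 without the filter and 0 with median-ratio scaling, which moved the median of all genes from 0.06 to -0.17, and 8 with a replicate block, which added Guca1b, Rom1, Pdc and Prph2 (adjusted p from limma 0.020, 0.030, 0.046 and 0.0495). Retina against Cre-negative SC at P0.5 went from 0 to 1 with the replicate block, and the block moved no other count by more than 1.5 times. Whether the replicate numbers pair the tissues of a stage is not settled: deviations of same-numbered libraries correlated at 0.087 to 0.43 from E17.5 to P7.5 and at -0.21 to 0.062 in the Adult, and the study states shared animals and litters but not that a number marks them. Across retina stages they correlated at -0.52 to 0.50, so there the libraries share only a number. Leaving out 1 library gave 0 to 10 members for late against early retina, 0 to 1 from P0.5 to P7.5 and 0 to 4 from P7.5 to the Adult. For Cre-positive against Cre-negative SC in the Adult the range was 0 to 3. For retina against Cre-positive SC it was 0 to 0 at P0.5, 0 to 1 at P7.5 and 0 to 5 in the Adult, and against Cre-negative SC 0 to 1 at P7.5 and 0 to 4 in the Adult. For the difference in change it was 0 to 10 against Cre-positive and 0 to 6 against Cre-negative SC. Without both P7.5 replicate 1 and Adult replicate 1 of the retina, chosen after the data were seen, the counts were 15 for late against early retina, 15 and 16 against Cre-positive SC for P7.5 and Adult, 16 and 2 against Cre-negative SC, and 19 and 12 for the difference in change. Run-off in retina gave 16 of 35 members lower in CPM in place of 33, also 16 without the reads of Gnb1, and in SC 2 when at least 10 reads were asked for in place of 6. The causes of these shifts were not tested. With 2 libraries a group, and about 1 FPKM per fragment in part of the Adult SC, low members cannot be resolved.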

Other observations

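Other genes known from photoreceptors were looked at as a second list of 36 genes, of which 20 were tested in retina. None was called between early and late stages in limma (0.22% of all genes rose), with a median difference of 1.02. Tulp1, which helps proteins reach the outer segment, was at 0.0567 and 2.71 FPKM at E17.5, 0.688 and 0.199 at P0.5, 0.348 and 79.2 at P7.5, and 274 and 66.4 in the Adult. Rbp3, the retinoid carrier between photoreceptors and pigment epithelium, was at or under 0.577 FPKM up to P7.5 replicate 1, at 22.5 FPKM in P7.5 replicate 2, and at 49.1 and 19.9 FPKM in the Adult. Unc119, which binds transducin, was at 0.282 to 4.6 FPKM up to P7.5 replicate 1, at 135 FPKM in P7.5 replicate 2, and at 144 and 103 FPKM in the Adult. Tulp1, Rbp3 and Unc119 were thus high in the same 3 libraries as Gnat1, Pde6g and Sag, but they do not describe the whole list. Rorb was at 723 and 3142 FPKM at E17.5 and at 1079 and 1910 FPKM in the Adult. Rpgrip1 was highest in E17.5 replicate 1 with 627 FPKM, against 6.71 in replicate 2, and was at 66.1 and 137 FPKM in the Adult.

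Gnb1, the beta subunit of rod transducin, was at 16210 and 31028 FPKM at E17.5 and 45000 FPKM in P0.5 replicate 1 of the retina, and was listed at 0 in the other 5 retina libraries, among them both Adult libraries. In the Adult run-off experiment it had 1427132 reads in retina without run-off. A listed 0 of Gnb1 therefore does not show that its mRNA was missing.

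Other lists moved between early and late retina by few genes. These were 1 of 4 progenitor, 1 of 5 ganglion cell and 1 of 3 amacrine genes tested, with median differences of -2.41, -0.96 and -1.52. The ganglion cell gene Thy1 was at or under 0.990 FPKM before P7.5, at 0.327 and 8.35 at P7.5, and at 24.4 and 0.650 in the Adult. In E17.5 Cre-negative SC, Pou4f1 was at 66.5 and 2060 FPKM and Tfap2b at 21.8 and 201 FPKM, so neither is particular to retina. Of the progenitor genes Sfrp2 fell by 5.18 on the log2(FPKM + 1) scale (SE 0.95, adjusted p from limma 4.2e-05), of the ganglion cell genes Pou4f1 fell by 2.66 (SE 0.70, adjusted p 0.022), and of the amacrine genes Tfap2b fell by 3.47 (SE 0.97, adjusted p 0.042), against 0.735% of all genes that fell. With median-ratio scaling none of the 3 was called (adjusted p 0.068, 0.113 and 0.113), and when 1 library was left out Sfrp2 was called in 8 of 8 fits, Pou4f1 in 3 and Tfap2b in 2.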
